A study of Homo sapiens and Homo sapiens
Mus musculus and Mus musculus with 9 samples.

Results

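The proteasome subunits and regulators were the 49 protein-coding genes of the table whose symbol begins with PSMA to PSMG and ends in a number, and POMP, out of 41713 distinct genes. The stranded mRNA libraries came from C4-2B, an established line of human prostate cancer cells, grown alone (3 libraries), from the same cells grown in mixed co-culture with MC3T3-E1, a line of mouse pre-osteoblasts, at 1 to 30 (3 libraries), and from MC3T3-E1 alone (3 libraries, not analysed here). Both lines were labelled WT, all cells were kept in alpha-MEM with 10% FBS, and the co-culture served the study as an in vitro model of cancer cell dormancy. The human transcripts of the co-culture had to be separated from those of the mouse cells, which the authors did with 3 pipelines (Xenome, XenofilteR and Kallisto). The values used below are the authors' means, one per gene and pipeline, of the counts of the C4-2B and co-culture libraries divided by each library's size factor. A mean over both groups carries no replicate spread and no difference between the groups, so no test was run, and the comparisons below are between genes and between pipelines that read the same libraries.

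The proteasome is the protease complex that degrades proteins tagged with ubiquitin. Its 20S core is a barrel of 2 outer alpha rings and 2 inner beta rings, with the proteolytic sites on PSMB5, PSMB6 and PSMB7, and the 19S particle binds, unfolds and feeds in the substrate. Interferon induces PSMB8, PSMB9 and PSMB10, which replace the constitutive catalytic subunits in the immunoproteasome, and alternative activators (PSME1 to PSME4) can cap the core in place of the 19S particle. Assembly is helped by dedicated chaperones of the core (PSMG1 to PSMG4 and POMP) and of the 19S base (PSMD5, PSMD9 and PSMD10).

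The libraries behind the means differed widely in their counts on human genes. Depth here and below means these counts, as given by the size factors, and not the number of reads sequenced. The size factors solved from the Xenome means were 5.93, 5.31 and 4.86 in the 3 deeper libraries and 0.427, 0.145 and 0.109 in the 3 shallower ones, a 54.4-fold range. No solved library was assigned to a group. Because each library weighs the same in a mean, the counting error of a mean was set mainly by the shallow libraries, and it was estimated, for a level that is the same in every library, at 0.522% for PSMD2 and at 9.84% for PSMB8 (Xenome). This error covers counting only. Of the listed prostate genes, KLK3, FOLH1, TMPRSS2 and HOXB13 had Xenome means of 51038, 37664, 4603 and 10532, so these defining genes of the labelled cell type were abundant. The osteoblast gene COL1A1 had means of 3384 with Xenome, 4557 with XenofilteR and 2471 with Kallisto, COL1A2 had 44.96, 264 and 222, and ALPL had 0.103 in each. The part of mouse transcripts in the means of the proteasome genes was not tested.

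Proteasome genes were among the more abundant transcripts. Of the 49 members, 48 had a mean in all 3 pipelines, and 41 had a Xenome mean of at least 1000. The matching shares of all protein-coding genes are not given here, so these counts alone do not set the members apart. The median over the members was 4646 (Xenome), 5262 (XenofilteR) and 5810 (Kallisto). Per kb of merged exons, 24 members lay at or above the 90th percentile of the 17784 protein-coding genes with a level in Xenome. The members at the other end were the immune subunits and the tissue-restricted subunits PSMA8 and PSMB11.

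**Figure D1:**
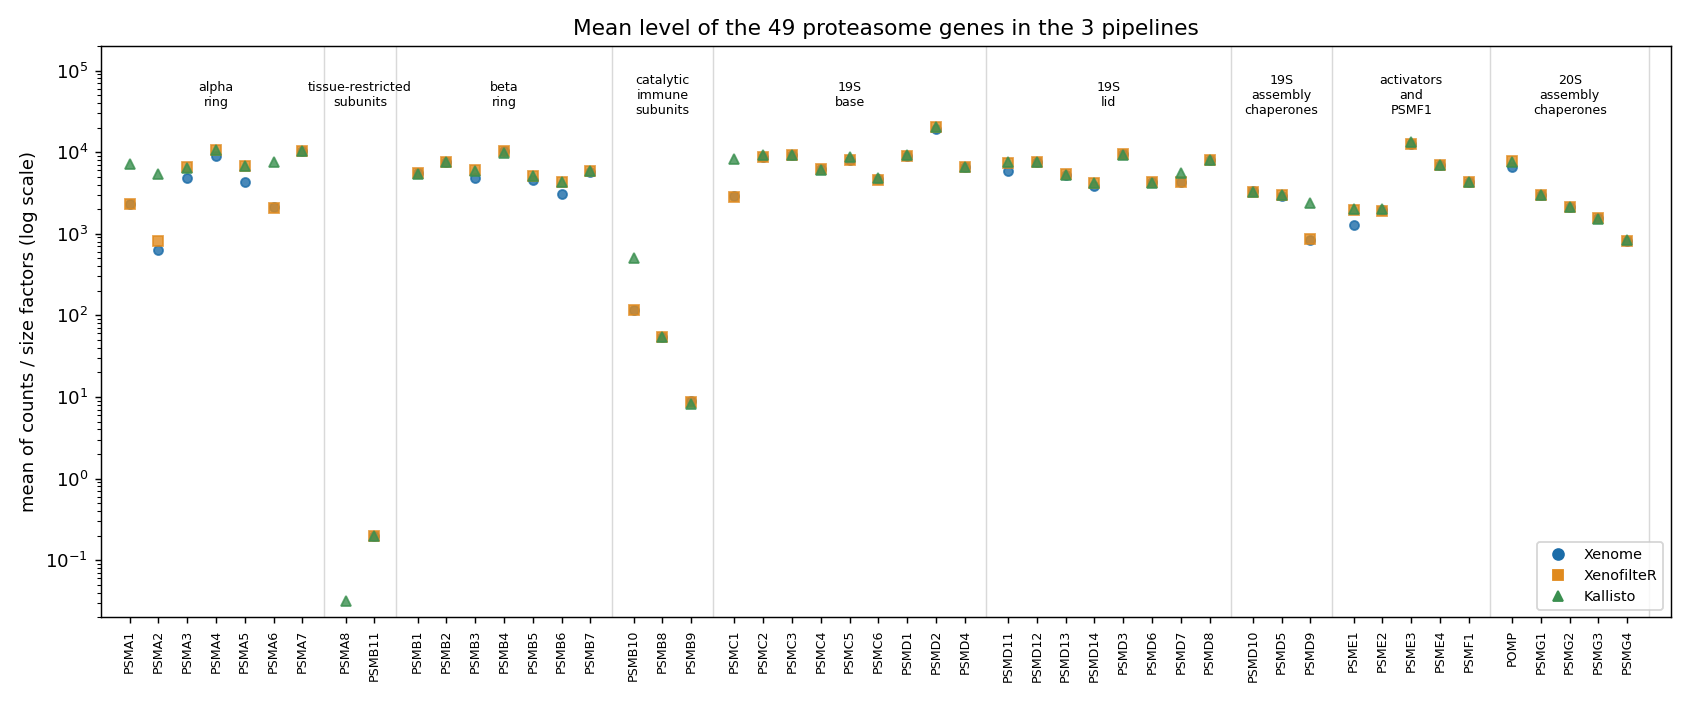
Mean of counts divided by size factors (log scale) for each of the 49 members, grouped by class, with 1 symbol per pipeline. Most members sit between 1000 and 20383 with the 3 symbols on top of each other, the immune subunits lie lower, and PSMA1, PSMA2, PSMA6, PSMB10, PSMC1 and PSMD9 show a Kallisto mean well above the other two.

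The class median of the beta ring ranked alike in every pipeline, while PSMB3, PSMB5 and PSMB6 were lower with Xenome than with the other two. Its 7 constitutive subunits had a median of 2963 per kb of merged exons with Xenome, which was the 97.4th percentile of protein-coding genes, against the 97.8th (XenofilteR) and the 97.48th (Kallisto). On this scale with Xenome the highest was PSMB4, a structural subunit, at 4808 per kb. The lowest was PSMB2, also structural, at 1677 per kb, so the ring spanned 2.87-fold. PSMB3 was the highest with XenofilteR (5154 per kb) and Kallisto (5082 per kb), where PSMB2 was again the lowest. Per kb of canonical transcript the span was 6.20-fold to 6.49-fold, with PSMB2 lowest and PSMB4 highest. Per kb of the longest coding sequence it was 3.00-fold with Xenome, 2.13-fold with XenofilteR and 2.14-fold with Kallisto. On that scale the place of PSMB2 turned, and PSMB6 was the lowest in each pipeline. PSMB2 had 12591 per kb there with Xenome, against 12900 for PSMB4, and was the highest with Kallisto (12663 per kb). Among the catalytic subunits, the means were 4589, 5128 and 5114 (Xenome, XenofilteR, Kallisto) for PSMB5, the chymotrypsin-like subunit, 3084, 4326 and 4246 for PSMB6, the caspase-like subunit, and 5739, 5929 and 5810 for PSMB7, the trypsin-like subunit. The Xenome mean of PSMB6 was thus the one that stood farthest from the other pipelines, while PSMB7 differed little between pipelines.

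The spread of the alpha ring was wider in the alignment pipelines than with Kallisto on each length scale. With Kallisto, the means of PSMA1 to PSMA7 were 7195, 5332, 6322, 10636, 6789, 7626 and 10232, and per kb of coding sequence the highest subunit, PSMA7, stood 1.81-fold above the lowest, PSMA2. This narrow span held on that scale only, since with Kallisto the ring spanned 5.98-fold per kb of canonical transcript and 9.18-fold per kb of merged exons. With Xenome the same subunits had means of 2321, 630, 4776, 8900, 4346, 2126 and 10450.5, and the span was 15.7-fold per kb of coding sequence, again from PSMA2 to PSMA7, 24.7-fold per kb of canonical transcript and 79.3-fold per kb of merged exons. With XenofilteR the means were 2300, 814, 6517, 10741, 6847, 2073 and 10403, and the spans on these scales were 12.1-fold, 19.1-fold and 61.1-fold. The members of this ring are needed in equal numbers in each core particle. The subunits that were low in both alignment pipelines were PSMA1, PSMA2 and PSMA6, and PSMA7 had nearly the same mean in all 3. Per kb of merged exons the median of the ring lay at the 85.6th percentile with Xenome, the 91.3rd with XenofilteR and the 93.2nd with Kallisto, so its median ranked below that of the beta ring in each pipeline on this scale. Per kb of coding sequence this order held with Xenome (93.1st against 94.8th percentile) and turned with XenofilteR (95.2nd against 94.8th) and Kallisto (95.4th against 94.2nd).

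**Figure D2:**
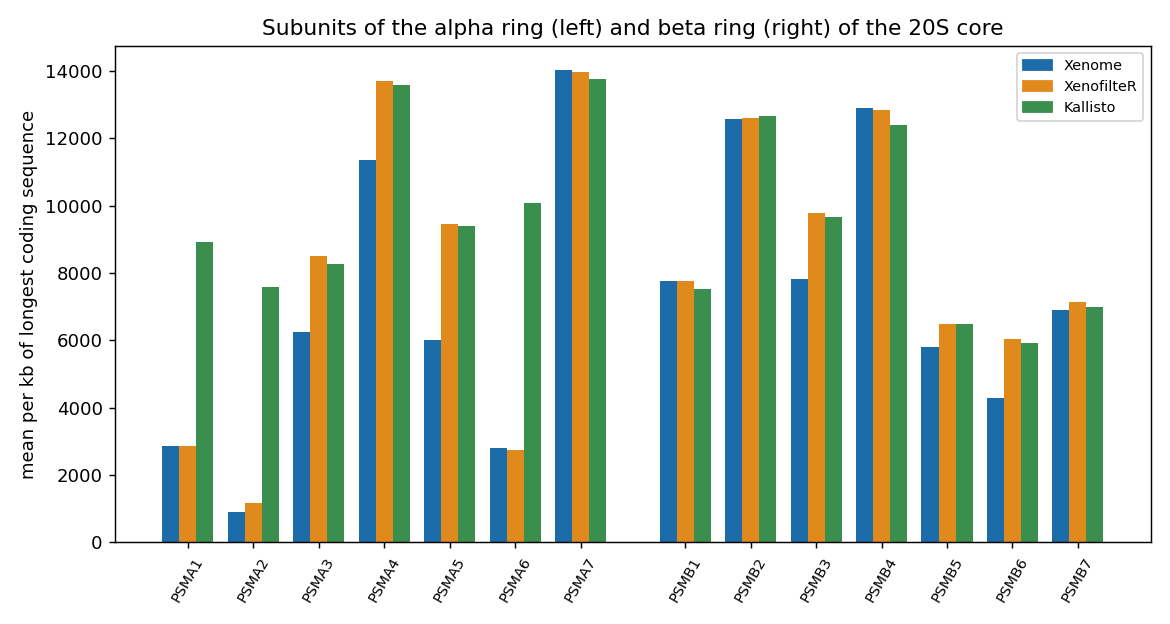
Mean per kb of the longest coding sequence for the 7 subunits of the alpha ring (left) and the 7 constitutive subunits of the beta ring (right), with 1 bar per pipeline. PSMA1, PSMA2 and PSMA6 are low with Xenome and XenofilteR and of similar height to their neighbours with Kallisto, whereas the beta ring bars span 2.13-fold to 3.00-fold in each pipeline.

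The interferon-inducible catalytic subunits were far below their constitutive counterparts in every pipeline. PSMB8, the counterpart of PSMB5, had means of 54.5, 54.3 and 54.2 with Xenome, XenofilteR and Kallisto. PSMB9, the counterpart of PSMB6, had 8.80, 8.73 and 8.28. PSMB10, the counterpart of PSMB7, had 117, 117 and 498, so its level was the only one of the trio that moved with the pipeline. Per kb of merged exons, PSMB8 was 0.528% of PSMB5 with Xenome (estimated counting error 0.0523 percentage points), 0.471% with XenofilteR and 0.471% with Kallisto. On the same scale PSMB9 was 0.124% of PSMB6 (counting error 0.0303), 0.0875% and 0.0846%. PSMB10 was 2.24% of PSMB7 (counting error 0.152), 2.17% and 9.42% (counting error 0.320). The Kallisto error used the read weights solved for Xenome, since none were solved for Kallisto. The order PSMB10, PSMB8, PSMB9 held in all 3 pipelines and, with Xenome, also per kb of canonical transcript (2.06%, 1.10% and 0.231%) and of coding sequence (2.07%, 1.13% and 0.311%). The median of the trio lay at the 36.0th percentile of protein-coding genes with Xenome.

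**Figure D3:**
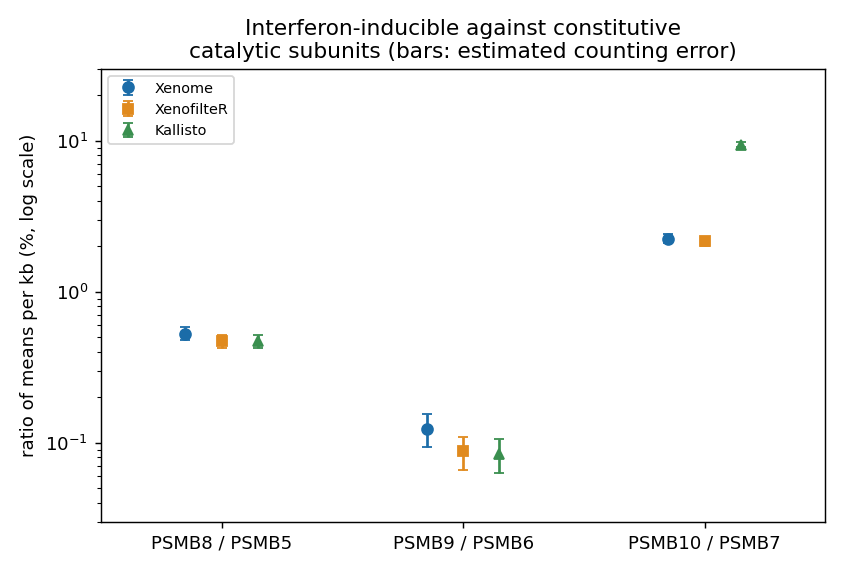
Ratio of each interferon-inducible catalytic subunit to its constitutive counterpart, from means per kb of merged exons (percent, log scale), with 1 symbol per pipeline and bars for the estimated counting error. The Kallisto bars use the read weights solved for Xenome. All ratios are below 10%, PSMB9 is lowest at 0.0846% to 0.124%, and the Kallisto ratio of PSMB10 (9.42%) stands above the other two (2.24% and 2.17%).

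The mean of PSMB9 was low enough to be written as whole reads. With Xenome it was the sum of 79, 66 and 86 reads in the 3 deeper libraries, 4 reads in the next and 0 reads in the 2 shallowest, 235 in all, and XenofilteR gave 79, 65, 85, 4, 0 and 0, 233 in all. Divided by size factors, the Xenome reads came to 13.3, 12.4, 17.7 and 9.38 in the 4 libraries with reads. In the 2 libraries without a read, 3 reads, taken as the floor, would have stood for 20.7 and 27.6 on this scale. A level like that of the deeper libraries lay below this floor, though fewer than 3 reads could still have been seen. Whether the 0 reads there mark a lower level was not tested. Markers of immune cells, which carry the immunoproteasome constitutively, were also low in the alignment pipelines. PTPRC had a mean of 0.972 with Xenome, CD3E 0.150 and CD68 26.7, and Kallisto gave 63.2, 0.0660 and 463 for the same genes. The part of other cells in the level of the immune subunits was not tested.

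The tissue-restricted subunits were at the counting floor. PSMB11, the beta subunit of the thymic cortex, had a mean of 0.197 in Xenome, made of 3 reads in each of 2 deeper libraries and 0 in the other 4, and XenofilteR gave the same reads. PSMA8, the alpha subunit of the testis, was listed with a mean by Kallisto alone, at 0.0317, a value that 105 genes shared.

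In the 19S particle, the base and the lid had high and similar ranks. The median of the 9 base subunits per kb of merged exons lay at the 95.2nd percentile with Xenome, the 95.1st with XenofilteR and the 95.3rd with Kallisto, and that of the 8 lid subunits at the 92.4th, 92.5th and 91.8th. PSMD2, the scaffold of the base that receives ubiquitin-like domains, had the highest mean of all members, at 19401 with Xenome, 20212 with XenofilteR and 20383 by Kallisto. Per kb of merged exons the ATPase PSMC3 was slightly higher with Xenome (4026 against 3911 per kb). PSMD2 was the higher with Xenome per kb of canonical transcript (6660 against 5951) and of coding sequence (7122 against 6958). PSMC1, another ATPase of the base, was the lowest of its class with Xenome at 476 per kb of merged exons and had means of 2915, 2830 and 8167. The other ATPases, PSMC2 to PSMC6, had Xenome means from 4702 to 9164 and Kallisto means from 4880 to 9264. In the lid, PSMD3 was highest with Xenome at 1901 per kb of merged exons and PSMD6 lowest at 481 per kb. With Xenome PSMD8 was highest per kb of canonical transcript (5263) and of coding sequence (7545). PSMD11 was lowest per kb of canonical transcript (1539). PSMD14, the deubiquitinase that removes ubiquitin chains from the substrate, had means of 3880, 4142 and 4148. PSMD11, a structural lid subunit, had 5924, 7428 and 7509, and PSMD7, which pairs with PSMD14, had 4304, 4279 and 5470.

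The chaperones and activators ranked below the beta ring, the base and the lid. Per kb of merged exons with Xenome, the median of the 19S assembly chaperones lay at the 83.4th percentile. That of the 20S assembly chaperones lay at the 86.3rd and that of the activators with PSMF1 at the 83.6th. PSMD10 was the highest of the 19S chaperones at 1389 per kb, and PSMD9 the lowest at 96.8 per kb, with means of 849, 851 and 2363. Among the chaperones of the core, PSMG1 was highest at 1389 per kb of merged exons and PSMG4 lowest at 78.4 per kb with Xenome. The maturation factor POMP (means of 6517, 7684 and 7579) was highest on this scale with XenofilteR and Kallisto. Per kb of canonical transcript and of coding sequence, POMP was highest in each pipeline, Xenome included. PSME3, the nuclear activator of the core, had means of 12722, 12748 and 13125 and led its class at 2468 per kb. PSME1 and PSME2, the interferon-inducible partners that form one heteromeric cap, had means of 1287, 1971 and 2022, and of 1937, 1895 and 2024. Their means were thus close with XenofilteR and Kallisto, and PSME1 was the lower one with Xenome. PSMF1, which binds the core, was the lowest of its class with Xenome at 413 per kb of merged exons. Per kb of coding sequence PSME4 was the lowest instead (1266 per kb, against 5259 for PSMF1).

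The pipelines were compared over the 11657 protein-coding genes with a Xenome mean of at least 50, which include 46 members, with each log2 ratio taken relative to the median gene. For 30 of the 46 (65.2%), both ratios lay within 0.1 of the median gene, near the 62.4% of all genes tested. Kallisto was higher than Xenome by over 0.5 for 8 members (17.4%), against 10.4% of all genes tested. These were PSMA1, PSMA2, PSMA5, PSMA6, PSMB10, PSMC1, PSMD9 and PSME1, and they fell into 2 kinds by what XenofilteR gave.

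In the first kind, Kallisto stood apart from both alignment pipelines. The relative log2 ratio of Kallisto to Xenome was 3.05 for PSMA2, 2.06 for PSMB10, 1.81 for PSMA6, 1.60 for PSMA1, 1.46 for PSMC1 and 1.45 for PSMD9. The plain ratios of the 2 means, not taken relative to the median gene, were 8.47, 4.25, 3.59, 3.10, 2.80 and 2.78. The ratio of XenofilteR to Xenome was between −0.04 and 0.00 for 5 of these 6, and 0.37 for PSMA2. PSMD7 followed at a distance, with 0.32 for Kallisto and −0.01 for XenofilteR.

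In the second kind, Xenome stood below both others. XenofilteR was higher than Xenome by over 0.5 for 2 members (4.35%), against 0.129% of all genes tested, and above the central 95% range of all genes (−0.03 to 0.11) for 10 members (21.7%), against 2.5% of all genes by the definition of that range. A further 4 members (8.70%) lay below the range, PSMC1, PSMA6, PSME2 and PSMC6 at −0.04, −0.04, −0.03 and −0.03, again against 2.5% of all genes. The relative log2 ratio of XenofilteR to Xenome was 0.66 for PSMA5, 0.61 for PSME1, 0.49 for PSMB6, 0.45 for PSMA3, 0.37 for PSMA2, 0.33 for PSMD11, 0.32 for PSMB3, 0.27 for PSMA4, 0.24 for POMP and 0.16 for PSMB5. For 9 of these 10 members, PSMA2 being the exception, the Kallisto mean lay within 0.1 (log2) of the XenofilteR mean. Such closeness was not particular to them, since the median ratio of Kallisto to XenofilteR over all 46 members was −0.01. The share of all genes within 0.1 is not given here. The group held 4 of the 7 subunits of the alpha ring, 3 of the 7 of the beta ring and none of the ATPases PSMC1 to PSMC6. These classes are small, and a difference between them was not tested.

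**Figure D4:**
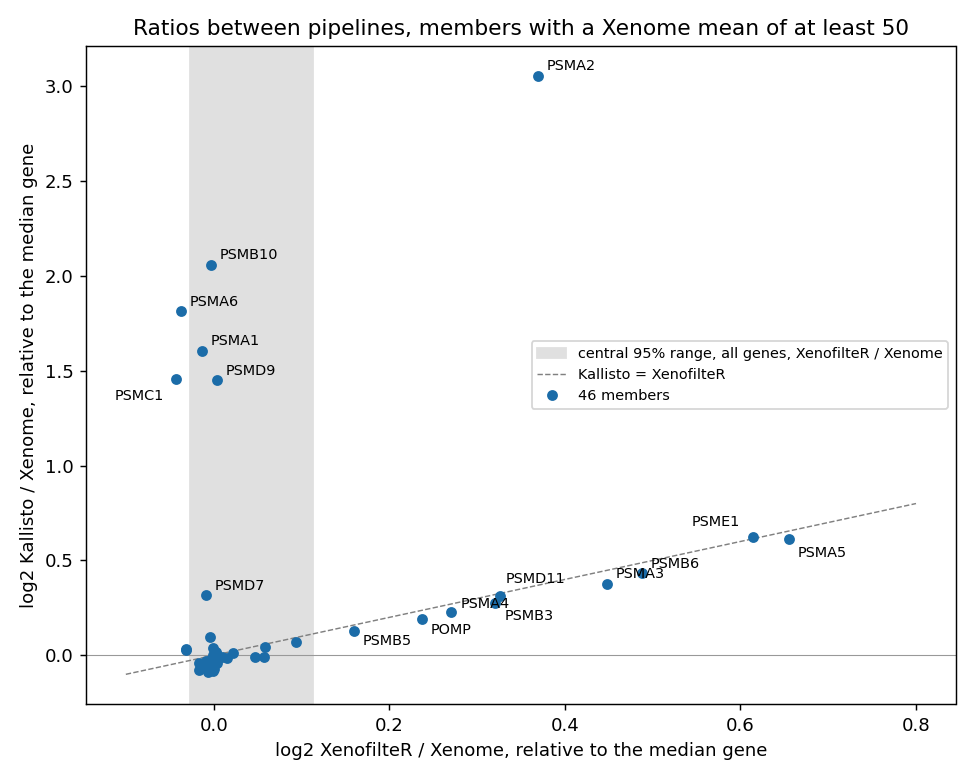
Log2 ratio of XenofilteR to Xenome (horizontal) against log2 ratio of Kallisto to Xenome (vertical), each relative to the median gene, for the 46 members with a Xenome mean of at least 50; the grey band is the central 95% range of XenofilteR to Xenome over 11657 genes and the dashed line marks equal XenofilteR and Kallisto ratios. PSMB10, PSMA6, PSMA1, PSMC1 and PSMD9 rise above the band on the left, PSMA2 lies apart at the top, and PSMA5, PSME1, PSMB6 and others follow the dashed line to the right.

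Sequence shared with other human transcripts went with the first kind. Of the distinct 31-base sequences of the coding sequence, the share also found in transcripts of another human gene was 100% for PSMA2 and PSMC1, 97.0% for PSMA6, 87.0% for PSMA1, 54.8% for PSMB10 and 54.0% for PSMD9. Of the remaining 40 members, 1 had a share of at least 50%, PSMC6 at 63.3%, and its ratio of Kallisto to Xenome was 0.03. PSME2, at 48.9%, had 0.04. Over all genes tested, the median ratio was −0.02 where this share was below 10%, 0.08 where it was 10 to 50% and 0.69 where it was 50% or more, with 3.29%, 11.4% and 59.2% of genes past 0.5. The members are therefore set beside a background in which the same measure moved with the ratio, and its part in the ratios was not tested further.

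The genes that hold the shared sequence were not listed in full, and 2 sorts of candidate were described, overlapping genes and pseudogenes. Annotated genes on the same strand shared exons with 5 of the 6 members. The partner of PSMA2 (ENSG00000256646) had means of 5.01, 5.07 and 1648, that of PSMA6 (ENSG00000258790) had 13.5, 13.9 and 1446, and that of PSMA1 (ENSG00000256206) had 4.21, 4.21 and 86.9. All 3 were low in the alignment pipelines and higher with Kallisto. The partner of PSMB10 (ENSG00000261884), went the other way, with 202, 200 and 70.6, and that of PSMD9 (ENSG00000256950) had 1.63, 1.63 and 1.70. PSMC1 shares 76.1% of its exon bases with NRDE2 on the opposite strand, which had means of 608, 606 and 788, and 31.2% of the exon bases of PSMD7 are shared with an antisense lncRNA, which had 75.4 and 75.7 in the alignment pipelines. The strand setting of the counting was not given in the sources used here. On the same strand the shared part of the exon bases was 14.1% for PSMA6, 14.9% for PSMD9, 17.2% for PSMA2, 26.7% for PSMA1, 39.4% for PSMB10 and 0 for PSMC1, and it was at most 2.15% in the remaining 40 members. On either strand, 16 of these 40 shared some exon bases with another gene, up to the 31.2% of PSMD7. Over the 11648 genes tested with an annotation, the median shared part was 0.751% on either strand and 0% on the same strand, so some overlap on either strand was common among all genes. The part of the overlap in the ratios was not tested.

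Pseudogenes were the other sort. The table listed 27 pseudogenes named after 9 members, all with means in the Xenome column, and 2 of them had a Xenome mean of at least 50. None had a Kallisto mean, but this was not particular to them. The lncRNAs PSMD6-AS2 and PSMB8-AS1, with Xenome means of 24.5 and 5.97, had no Kallisto mean either. The share of all pseudogenes without a Kallisto mean is not given here. The 12 pseudogenes of PSMC1 summed to 759 with Xenome, 26.02% of the mean of PSMC1, and the 3 of PSMA6 summed to 558, 26.2% of the mean of PSMA6. PSMC1P1 alone had 727 with Xenome and 794 with XenofilteR. With its pseudogenes added, PSMC1 came to 3674 with Xenome, and the Kallisto mean of PSMC1 was 2.22-fold this sum, while for PSMA6 it was 2.84-fold. The pseudogenes of PSMA2 summed to 5.69, and those of the other members to 30.1 or less.

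How close the copy is can be seen from PSMC1P1. The coding sequence of PSMC1 and the pseudogene differed at 1 of 1320 aligned bases, and 97.6% of the 31-base sequences of PSMC1 were present in PSMC1P1. The 1 difference is T885A, counted from 1 at the first coding base with the base of PSMC1 first, and at this codon (295) the copy reads as a stop. The 90 bases around it are shown with the differing base in capitals. PSMC1 is on the plus strand at chr14:90268372-90269444 of GRCh38, in 2 coding exons joined here, and PSMC1P1 is on the plus strand at chr3:68636544-68636633.
PSMC1: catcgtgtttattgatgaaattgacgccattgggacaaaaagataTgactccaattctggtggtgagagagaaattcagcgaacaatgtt
PSMC1P1: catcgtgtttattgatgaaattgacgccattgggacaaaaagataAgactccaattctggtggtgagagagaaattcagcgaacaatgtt

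Members of the second kind were found at low and at high shares of sequence in common with mouse. The share of coding 31-base sequences found in mouse transcripts was 19.2% for PSMA5, 16.7% for PSMD11, 12.4% for PSMA2 and 10.3% for PSMB5, but 2.93% for PSME1, 1.78% for POMP and 1.63% for PSMA3, and the median of the 10 members was 5.69% against 3.63% for the other 36. The highest share of all was that of PSMD14 at 21.3%, whose ratio of XenofilteR to Xenome was 0.09, and PSME3 at 17.2% had a ratio of 0.00. Among all genes tested, the share above the central 95% range was 0.885% where under 1% of the sequence was shared with mouse, 2.52% at 1 to 10% and 8.72% at 10% or more. The members went the same way, with 0 of 8, 6 of 28 and 4 of 10 in these ranges above it, and the part of mouse sequence in their ratios was not tested.

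**Figure D5:**
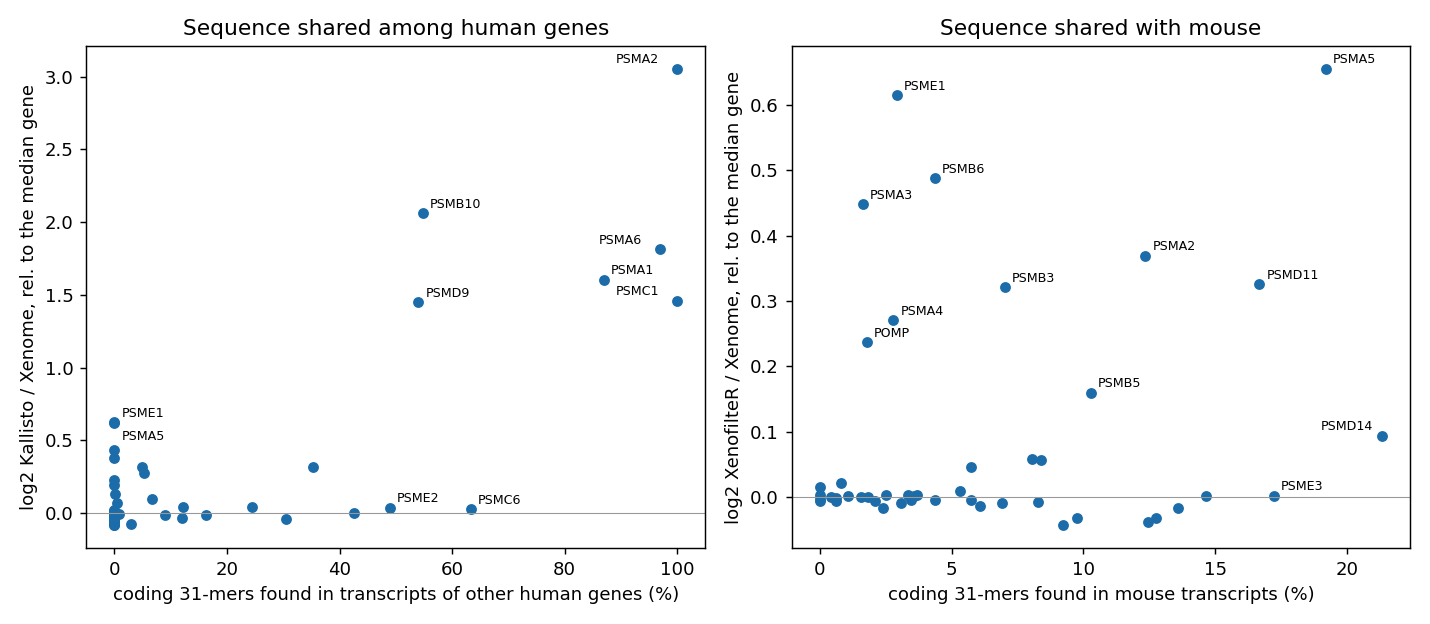
Left, share of coding 31-base sequences found in transcripts of other human genes (percent) against log2 Kallisto to Xenome; right, share found in mouse transcripts (percent) against log2 XenofilteR to Xenome, both ratios relative to the median gene, 1 point for each of 46 members. On the left the 6 highest points lie at shares of 54.0% or more, with PSMC6 (63.3%) near 0, and on the right high points occur from 1.63% (PSMA3) to 19.2% (PSMA5).

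The longest stretches that are the same in both species show this range. They are printed for members with a high ratio of XenofilteR to Xenome and, as a contrast, for PSMD14, with the bases found unbroken in a mouse transcript in capitals and 15 human bases on either side in lower case. Over the 10 members of the second kind the longest stretch had a median of 53.5 bases (35 to 89), and over the other 36 a median of 51.5 bases (0 to 126), where 0 stands for no shared stretch of 31 bases. The stretch is 65 bases in PSMA5 (minus strand, chr1:109415344-109421904 of GRCh38, found in mouse Psma5), 47 bases in PSMB6 (plus strand, chr17:4796785-4797473, Psmb6), 35 bases in PSMA3 (plus strand, chr14:58257841-58257953, in the mouse transcript of Gm13835), 41 bases in PSME1 (plus strand, chr14:24138552-24138767, Gm7776) and 126 bases in PSMD14 (plus strand, chr2:161371218-161385484, Psmd14). Each crosses 1 exon junction, so the coordinates, which are those of the capitals, span an intron.
PSMA5: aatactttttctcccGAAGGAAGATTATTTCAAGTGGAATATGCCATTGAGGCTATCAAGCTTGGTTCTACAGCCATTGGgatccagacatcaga
PSMB6: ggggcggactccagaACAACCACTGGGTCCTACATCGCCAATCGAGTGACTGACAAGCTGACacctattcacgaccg
PSMA3: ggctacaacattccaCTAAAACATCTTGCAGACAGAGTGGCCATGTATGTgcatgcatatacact
PSME1: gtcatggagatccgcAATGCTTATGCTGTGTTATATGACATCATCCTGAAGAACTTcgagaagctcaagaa
PSMD14: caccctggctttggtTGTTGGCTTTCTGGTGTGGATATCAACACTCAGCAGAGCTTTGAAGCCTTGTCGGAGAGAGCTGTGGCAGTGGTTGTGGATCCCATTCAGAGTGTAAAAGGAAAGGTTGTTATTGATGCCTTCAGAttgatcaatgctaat

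The other genes of the ubiquitin-proteasome pathway were measured with the same 2 ratios. All 24 listed genes had a Xenome mean of at least 50, and 15 lay at or above the 90th percentile of protein-coding genes per kb of merged exons. The highest by this rank was UBB, a polyubiquitin gene, at the 99.6th percentile, and the lowest was PAAF1, a chaperone of the 19S ATPases, at the 59.8th. Kallisto was higher than Xenome by over 0.5 for 3 of the 24, among them the ubiquitin genes UBB (0.83) and RPS27A (0.51), which at 12.5% is near the 10.4% of all genes, and lower by over 0.5 for 0. XenofilteR was above the central 95% range for 2 (8.33%, against 2.5% of all genes), VCP, the unfoldase that extracts substrates (0.25), and ADRM1, a ubiquitin receptor of the 19S base (0.17). NFE2L1, the transcription factor that raises proteasome genes when the proteasome is inhibited, had means of 10695, 10688 and 11216, so its level hardly moved with the pipeline.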

How the data were processed

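RNA from C4-2B cells cultured alone and from the mixed co-culture (3 libraries each) was sequenced with 50 bp paired-end reads, per the labels. The authors counted reads on GRCh38 after Xenome had selected the human ones or XenofilteR had filtered out those of mouse, or quantified human genes with Kallisto on joined human and mouse transcriptomes. For each pipeline the deposited table gives the authors' mean of the counts divided by size factors. Its other 15 value columns hold the authors' comparison of the groups (log2 fold changes, standard errors, Wald statistics, p-values and adjusted p-values) and were not used. Versions of the tools for species separation, counting and quantification were not given in the sources used here. Of 41734 rows, 21 repeated rows were dropped. Members, classes, pathway and marker lists were chosen with earlier results of these data known, and some listed genes are not reported here.

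Levels were divided by merged exon length (GENCODE 44, where all 49 members and 19874 protein-coding genes matched) and ranked among protein-coding genes with a mean above 0. Ratios between pipelines used genes with a Xenome mean of at least 50, with a threshold of 0.5 on the log2 scale. Pipelines were scaled separately, so ratios are relative to the median gene. Whole reads were solved from the weight of 1 read in each of 6 libraries (tolerance 1e-12). A single solution was found for all means below 10 (20014 with Xenome, 19873 with XenofilteR). On simulated data all of 1881 genes were recovered (100%), but these were built with the weights given to the solver, so errors in the weights were not covered. The ratio threshold was tested on simulated data, where 100% of 100 genes raised by 1 (log2), 100% of 100 raised by 2 and 0.00873% of 11457 unchanged genes passed. The counting error is the square root of the mean times the average weight of 1 read, and 3 reads were taken as the floor. For the Kallisto error the weights solved for Xenome were used. Shared sequence is the share of distinct 31-base sequences (either strand) of the coding sequence of the canonical transcript found in GENCODE 44 and mouse GENCODE M21 transcripts. Named in full were the highest and lowest member of each class, catalytic and immune subunits, and members whose pipelines differed by over 0.5. Computing was done in python 3.11.15 with numpy 2.4.6, pandas 2.3.3, numba 0.67.0 and matplotlib 3.10.9. Alternatives were each pipeline, other lengths, no length scaling, no filter, a pseudocount of 1 and a background of genes with a mean of at least 50.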

Additional observations from a re-analysis of the deposited data

How the results depend on the processing

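The highest ratio of an immune to a constitutive subunit, that of PSMB10 to PSMB7, was 2.24% with Xenome and moved to 9.42% with Kallisto, and the cause was not tested. With XenofilteR, without length scaling and with canonical transcript and coding length it stayed between 2.04% and 2.17%. The number of classes whose median lay at or above the 90th percentile was 3 (Xenome), 4 (XenofilteR and Kallisto alike), 3 without length scaling, 2 against genes with a mean of at least 50, and 4 with canonical transcript or coding length. The number of members with Kallisto higher by over 0.5 was 8 without a filter and with a pseudocount of 1, and 6 against XenofilteR. Members with a mean of at least 1000 numbered 41, 41 and 43 in the 3 pipelines. The alpha ring's span moved with the length as well as with the pipeline, from 79.3-fold to 15.7-fold with Xenome, from 61.1-fold to 12.1-fold with XenofilteR and from 9.18-fold to 1.81-fold with Kallisto, between merged exons and coding sequence. Canonical transcript and coding length, the ratio to XenofilteR and the ring spans were added after the data were seen. The length from a protein table and leaving out a replicate were not run. No paired analysis was possible because the means join the libraries of both groups. Depth in human counts limits the immune and tissue-restricted subunits, since 3 reads of the shallowest library add 4.59 to a Xenome mean.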
